A study of Sus scrofa with 48 samples.

Results

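PON3 and CES1 are esterases, and their transcripts were measured with 4 array probes in gluteus medius (GM), liver and kidney of 16 pigs. PON3, serum paraoxonase/lactonase 3, carried the probes A_72_P385478 and A_72_P223547. CES1, liver carboxylesterase 1, carried A_72_P223187 and A_72_P292384. They were 2 of the 1862 genes that could be named through RefSeq on this porcine array. PON3 had been selected on its measured difference between the lines in kidney and CES1 on its difference in liver, so these contrasts are given below as values with no test. The second PON3 probe was found by its accession and had not been used in that choice.

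The pigs were F2 offspring of Swiss Large White F0 boars that had received either a standard diet (F2 C, 8 pigs) or that diet supplemented with methionine, choline, betaine, folate and vitamins B6 and B12 (F2 E, 8 pigs). The F1 sires and the F2 pigs themselves received only the standard diet, and each line held 4 barrows and 4 females slaughtered at a similar weight. All 3 tissues came from the same 16 pigs, which gave 48 arrays with 1 colour. In each line the paper's F2 pigs came from fewer F1 boars, and from fewer sows, than 8. Some of the 8 pigs of a line therefore share a sire and some share a mother, but which ones is not given in the sources used here. The p-values take the pigs as independent, measure the spread between pigs and cannot tell the diet of the F0 boar apart from family.

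Paraoxonases hydrolyse lactones and, in the case of PON1, organophosphates. PON1 and PON3 are made mainly by the liver and circulate on high-density lipoprotein, whereas PON2 stays within cells of many tissues. CES1 is an abundant serine esterase of the hepatocyte endoplasmic reticulum that cleaves ester drugs and takes part in the turnover of cholesteryl esters and triacylglycerol. In the RefSeq gene order of the assembly Sscrofa11.1, PON1, PON3 and PON2 are direct neighbours, and CES1 lies next to CES5A and SLC6A2.

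The number of spots well above background, of 43803 probe spots per array, was 24128 to 30814 in liver. It was 25071 to 36804 in kidney and 18948 to 28754 in GM. Markers of muscle fibres were highest in GM on all arrays for 19 of 19 probes, hepatocyte markers highest in liver for 12 of 12, and kidney tubule markers highest in kidney for 6 of 9. Each tissue was hybridised on 4 slides with 4 arrays each. A slide held a single line in GM and kidney, and in liver 2 of the 4 slides held both lines. The pig numbers form a lower and an upper run of 8 pigs each, 4 per line, and the sources used here do not say what separates these runs. The kidney arrays of pigs f2_m_2890 and f2_f_2897, both F2 E, stood apart, with a median signal of 48 each beside 100 to 240.5 on the other 14 kidney arrays, and kidney results are given with and without them. Each member probe had 1 spot per array, of which none was saturated or marked as an outlier. In bulk tissue, fewer cells of a type and less RNA per cell cannot be told apart.

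Both genes gave their highest signal in liver, and they differed in which tissue came last. On the log2 scale common to all 48 arrays, the signal of PON3 probe A_72_P385478 was 12.54, 13.33 and 17.15 (lowest, median, highest of 16 pigs) in liver, 9.94, 11.48 and 14.10 in GM and 7.45, 8.01 and 12.43 in kidney. The order liver, GM, kidney was the same in 16 of 16 pigs. Liver exceeded kidney by 5.30 (SE 0.43, 39.4-fold, limma adjusted p = 2.38e-15) and GM by 2.60 (6.08-fold, limma adjusted p = 6.35e-07), and GM exceeded kidney by 2.69 (6.47-fold, limma adjusted p = 2.93e-07). Probe A_72_P223547 gave the same order, with differences of 3.93, 2.48 and 1.46, but was well above background on only 12 GM and 6 kidney arrays.

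For CES1 the order was liver, kidney, GM in 16 of 16 pigs and with both probes. Probe A_72_P223187 gave 15.79, 16.45 and 16.82 in liver, 12.96, 13.96 and 14.95 in kidney and 7.43, 8.58 and 10.10 in GM. Its liver signal was 5.55-fold that of kidney (log2 difference 2.47, SE 0.19) and 213-fold that of GM (log2 difference 7.73). Probe A_72_P292384 gave 17.3-fold and 102-fold for the same contrasts, the latter against GM values that were well above background on only 13 of 16 arrays. All 12 tissue differences of the 4 probes had limma adjusted p below the threshold of 0.05, without the 2 kidney arrays of low signal as well, and in each the exact sign-flip permutation test gave the smallest p it can reach with 16 pigs, 3.05e-05. Tissue differences were common on the array: 70% of the 34501 probes tested passed between liver and kidney, 70.6% between liver and GM, and 75.1% between GM and kidney.

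**Figure D1:**
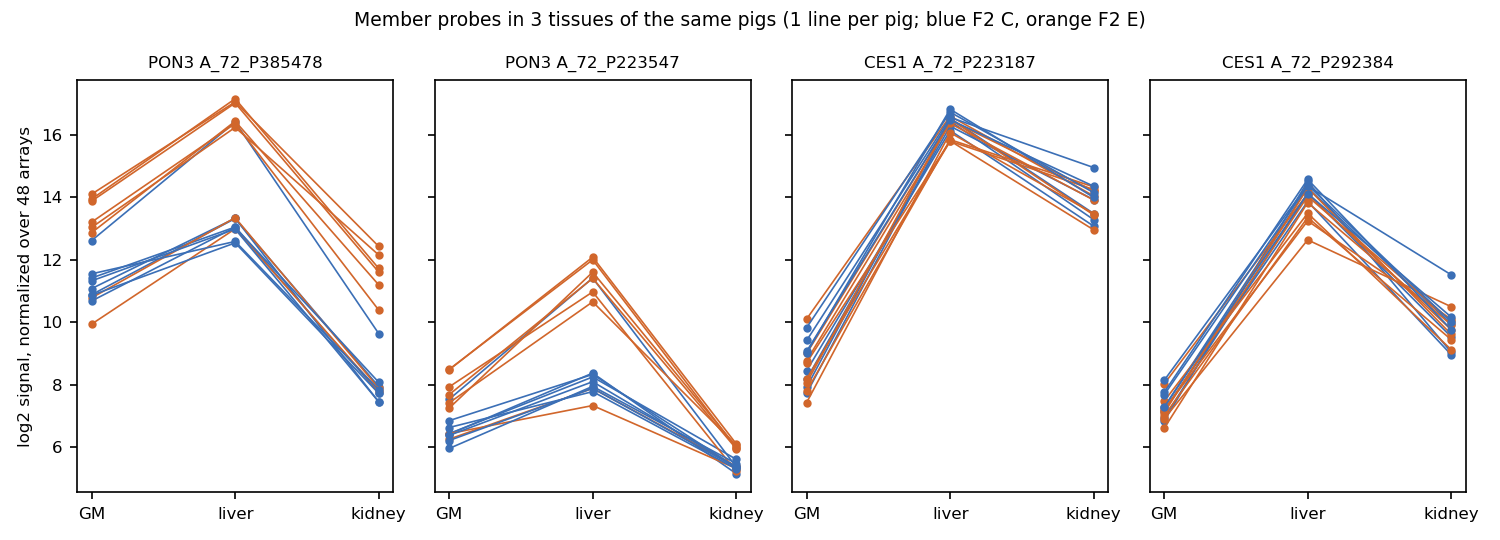
Signal of the 4 probes of PON3 and CES1 (y axis, log2 signal normalized over 48 arrays) in GM, liver and kidney (x axis), with 1 line per pig, blue for F2 C and orange for F2 E. Every pig is highest in liver in all panels, lowest in kidney for PON3 and lowest in GM for CES1. Heights are comparable between tissues within a panel, not between probes.

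The question put to the lines was whether the diet of the grandsire generation left a difference in tissue transcripts of the F2 pigs. For PON3, the pigs did not spread evenly around 2 line means. With probe A_72_P385478 the same 7 pigs, called the high set below, were the highest in all 3 tissues. The largest gap between neighbouring pigs lay directly below them in each tissue. It spanned 0.635 of the range in liver, 0.253 in GM and 0.321 in kidney. Separate clusters were defined by a gap above 0.5 of the range, so that only the liver values met this rule. Pigs are named as in the sample labels, where m stands beside barrows and f beside females, and the plots show the number that ends the name. Pigs f2_m_2890, f2_f_2897, f2_m_2943, f2_m_2944, f2_f_2949 and f2_f_2950 of F2 E and pig f2_m_2878 of F2 C made up the high set, which is 6 of 8 F2 E and 1 of 8 F2 C pigs. The values below are log2 signals normalized within each tissue.

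In liver, PON3 probe A_72_P385478 read 12.55, 13.06 and 16.62 (lowest, median, highest) in F2 C and 13.01, 16.61 and 17.39 in F2 E. Of the F2 C pigs, 7 lay at 13.36 or below and pig f2_m_2878 alone stood at 16.62. Of the F2 E pigs, f2_m_2891 and f2_f_2899 lay at 13.01 and 13.37, among the low F2 C pigs, and the other 6 lay at 16.45 or above. The lines therefore overlapped, although 4 of 8 F2 E pigs exceeded the highest F2 C pig. No pig fell between 13.37 and 16.45, a distance of 3.07 or 8.43-fold.

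The liver mean of the F2 C pigs was 13.45 ± 1.32 (SD, n = 8), and that of the F2 E pigs was 15.999 ± 1.77 (SD, n = 8). The log2 ratio was 2.55 (SE 0.69, 5.86-fold), with a limma adjusted p of 0.226 and an exact two-sided permutation p of 0.00886 for this probe taken alone. It did not pass after adjustment. The line tests of PON3 in liver and GM used the same 8 and 8 pigs whose kidney values had picked the gene. Their p-values are therefore no independent evidence on the lines. In liver 0.0937% of the 28823 probes tested passed (27 probes). The second probe, A_72_P223547, read 7.79, 8.17 and 11.41 in F2 C and 7.38, 11.18 and 12.08 in F2 E (log2 ratio 1.99, SE 0.68, limma adjusted p = 0.394, exact permutation p = 0.0351), again with pig f2_m_2878 as the single high F2 C pig.

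In GM, probe A_72_P385478 read 9.76, 10.34 and 11.85 in F2 C and 8.98, 12.41 and 13.47 in F2 E. The same 6 F2 E pigs lay above the highest F2 C pig, which was again f2_m_2878, and pig f2_m_2891 of F2 E was the lowest of all 16. The log2 ratio was 1.54 (SE 0.56, 2.90-fold, limma adjusted p = 0.190, exact permutation p = 0.0326) and did not pass, where 0.769% of the 25625 probes tested in GM did (197 probes). Without pig f2_m_2891 it was 1.96 with a limma adjusted p of 0.0476, just inside the threshold, in a fit where 0.757% of all probes passed. Of the 16 fits that each left out 1 pig, only this one passed. The pig it left out was the lowest F2 E pig, so nothing is read from this crossing.

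The second PON3 probe was dim in GM, well above background on 6 of 8 arrays in each line. It read 5.56, 5.87 and 6.71 in F2 C and 5.75, 6.73 and 7.57 in F2 E (log2 ratio 0.75, SE 0.25, limma adjusted p = 0.147, exact permutation p = 0.0177). Its 7 highest pigs were the same animals, from 6.48 to 7.57, and the 9 others lay between 5.56 and 6.18.

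In kidney, the contrast by which PON3 had been picked, probe A_72_P385478 read 7.94, 8.32 and 10.23 in F2 C and 8.32, 11.93 and 12.93 in F2 E. The 6 high F2 E pigs lay at 10.96 or above, pig f2_m_2878 lay at 10.23, and no pig fell between 8.62 and 10.23. The log2 ratio was 2.67 (6.34-fold), with group means of 8.51 ± 0.73 and 11.18 ± 1.83 (SD, n = 8 each). In kidney 0.0119% of the 33664 probes tested passed (4 probes), and nothing is read from that share here. The second probe was well above background on 2 F2 C and 4 F2 E kidney arrays and gave a log2 ratio of 0.53. It did not divide the kidneys in the same way: the 7 pigs ranged from 5.08 to 6.28 and the 9 others from 4.99 to 5.59, with f2_f_2897 (5.08) and f2_m_2878 (5.26) below f2_f_2884 (5.59). Without the 2 arrays of low signal the log2 ratios in kidney were 2.46 and 0.63.

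**Figure D2:**
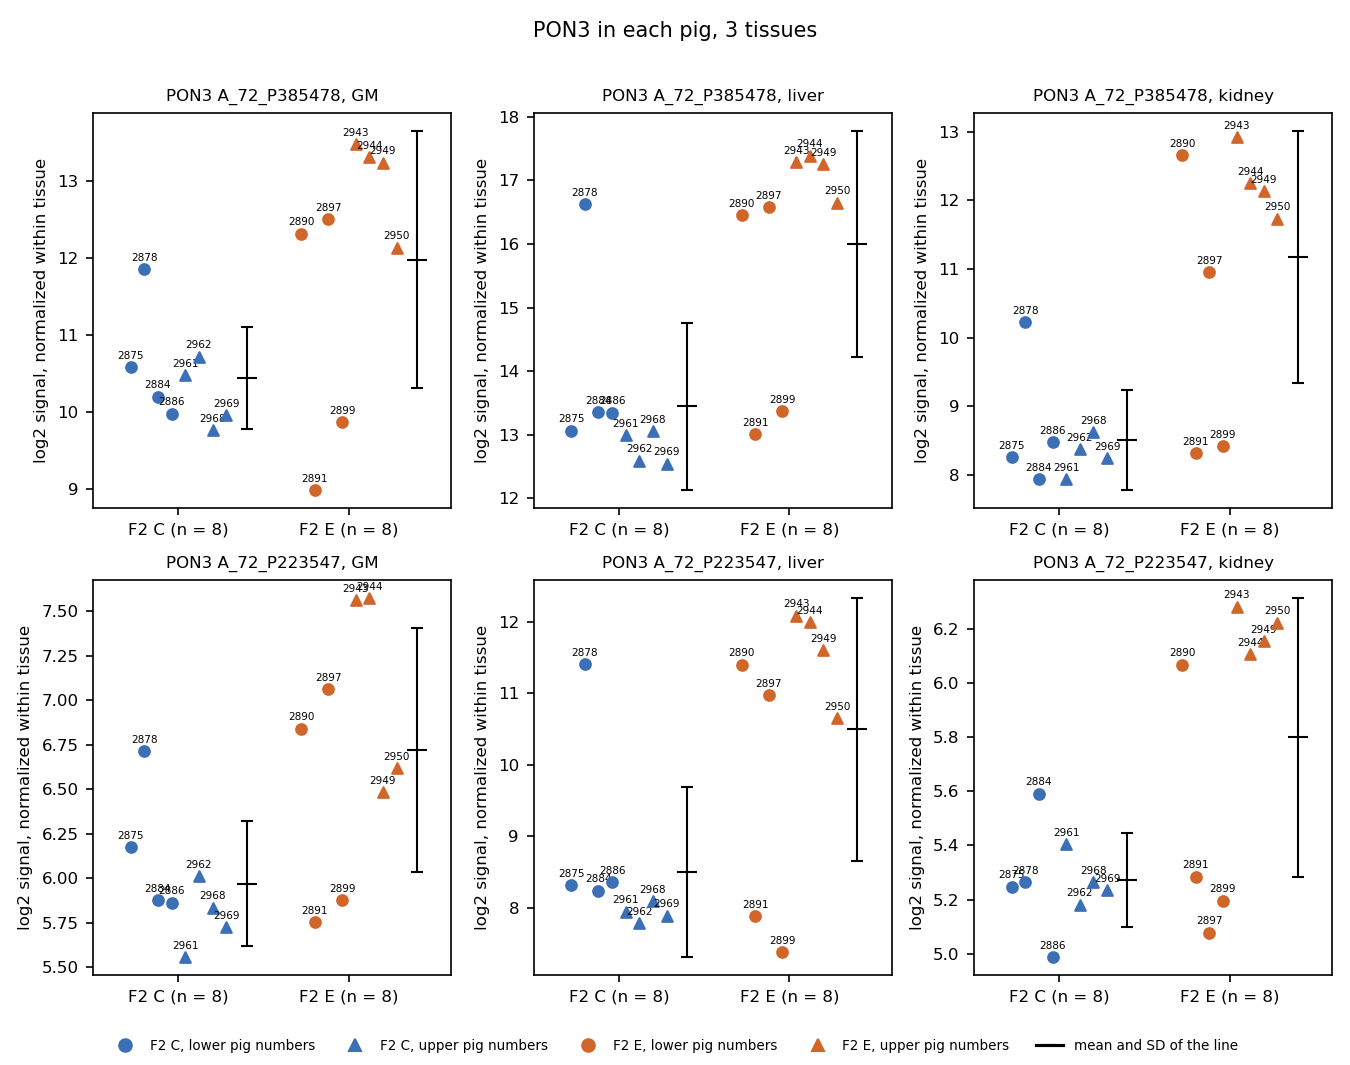
PON3 in each pig (y axis, log2 signal normalized within tissue) by line (x axis, n = 8 each) with probe A_72_P385478 in the upper and A_72_P223547 in the lower panels; circles and triangles are the lower and upper pig numbers, and bars are mean and SD. In liver the pigs leave the interval from 13.37 to 16.45 of the upper panel empty, and pig f2_m_2878 is the single high F2 C pig.

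The sets were compared by their ranges only, since they were read off the PON3 values. In liver the 7 pigs ranged from 16.45 to 17.39 and the 9 others from 12.55 to 13.37. In GM the ranges were 11.85 to 13.47 and 8.98 to 10.72, and in kidney 10.23 to 12.93 and 7.94 to 8.62. Among 23371 probes present in all tissues with a value on every array, 15 (0.0642%) had any set of 7 pigs highest in all 3 tissues, and PON3 probe A_72_P385478 was the only probe with these 7. Both the number 7 and the pigs were taken from the liver values of this probe, and kidney had picked the gene. The share is therefore a description and does not measure how unusual PON3 is. The other named genes among the 15 were TLR7, a receptor for single-stranded RNA, and NEU1, a lysosomal sialidase, each with another set of pigs. Within single tissues, these 7 pigs were the highest in 2 probes in liver, both of PON3, in 6 probes in GM and in 7 in kidney. In kidney the division rests on normalization for f2_f_2897, whose intensity before it was 430 beside up to 432 among the 9 others. With both scalings to the 75th percentile the 7 pigs were again the highest in every tissue.

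**Figure D3:**
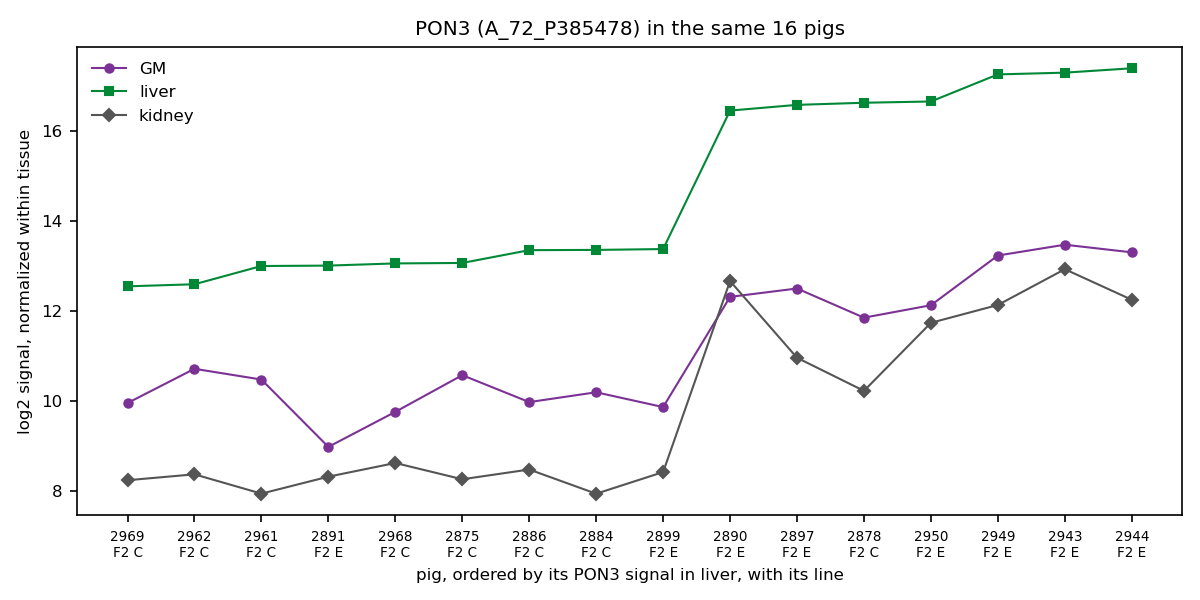
PON3 probe A_72_P385478 (y axis, log2 signal normalized within tissue) in the 16 pigs, ordered on the x axis by their liver signal with the line under each pig number; circles are GM, squares liver and diamonds kidney. The 7 pigs on the right are high in all 3 tissues, from 16.45 in liver, 11.85 in GM and 10.23 in kidney upwards.

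The high set held 4 barrows and 3 females. It took up all 4 F2 E pigs of the upper number run, 2 of 4 F2 E and 1 of 4 F2 C pigs of the lower run, and 0 of 4 F2 C pigs of the upper run. Accordingly, the line ratio of probe A_72_P385478 in liver was 4.35 within the upper run (limma adjusted p = 5.62e-05) and 0.75 within the lower run (limma adjusted p = 0.909). In GM it was 2.81 (limma adjusted p = 0.00124) and 0.27 (limma adjusted p = 0.897), and in kidney, with no test, 3.97 and 1.36. The second probe gave 3.65 (limma adjusted p = 0.00202) and 0.33 (0.971) in liver and 1.28 (limma adjusted p = 0.0318) and 0.23 (0.767) in GM. Within the upper run 0.129% of all probes passed in liver and 4.26% in GM, and within the lower run 0.215% and 1.36%. In the upper run each line lay on a single slide, so that slide and line cannot be told apart there. The upper run sets 4 pigs of the high set against 4 pigs outside it, and kidney values of the same pigs had picked the gene. Its p-values are therefore no independent evidence on the lines. The difference between the runs was not tested.

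The 4 F2 E pigs of the upper run also shared 1 slide in each tissue. With the slide as a random block, the ratio of probe A_72_P385478 was 1.84 in liver (limma adjusted p = 0.488) and 1.54 in GM (limma adjusted p = 0.773). Within the liver slides that held both lines, pigs f2_m_2875 and f2_m_2878 of F2 C read 13.07 and 16.62 beside 16.45 and 13.01 for pigs f2_m_2890 and f2_m_2891 of F2 E, a difference of means of -0.12. On the other, pigs f2_f_2884 and f2_f_2886 read 13.36 and 13.35 beside 16.58 and 13.37 for pigs f2_f_2897 and f2_f_2899, a difference of 1.62. High and low PON3 pigs thus stood on the same slide in both cases. In GM and kidney slide and line cannot be told apart.

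Signal quality and cell markers were set beside the PON3 sets. Spots well above background numbered 24128 to 29295 on the liver arrays of the 7 pigs and 26548 to 30814 on those of the 9 others, with overlapping ranges in GM (18948 to 25728 and 19891 to 28754) and kidney (25071 to 34493 and 30718 to 36804) as well. The 4 lowest kidney counts all belonged to the 7 pigs, 2 of them to the arrays of low signal. The mean level of the hepatocyte markers was 17.97 to 18.23 in the livers of the 7 pigs and 17.92 to 18.52 in the others. In kidney it was 8.22 to 11.54 and 8.10 to 10.47, and in GM 7.54 to 9.72 and 6.94 to 9.24. The ranges of all 6 marker lists overlapped between the sets in every tissue. Their part in the PON3 values was not tested.

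Whether the line ratio of PON3 differed between GM and liver was tested by an interaction over the 48 arrays. The ratio in GM minus that in liver was -0.9995 (SE 0.87, limma adjusted p = 0.891) with A_72_P385478 and -1.04 (SE 0.65, limma adjusted p = 0.788) with A_72_P223547, and in neither did the difference pass, against 0.122% of all probes. These comparisons used the same 16 pigs as the kidney contrast that picked the gene, so they are no independent evidence on the lines.

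PON1 and PON2, the neighbours of PON3 in the genome, did not share its pattern of high pigs. PON1 probe A_72_P035606 read 15.18, 15.44 and 15.90 in F2 C livers and 14.13, 15.08 and 15.85 in F2 E livers (log2 ratio -0.40, SE 0.20, limma adjusted p = 0.636, exact permutation p = 0.0906). In GM the ratio was -0.26 (limma adjusted p = 0.611) at a dim signal, and in kidney -0.17 (limma adjusted p = 1.00), turning to 0.40 (limma adjusted p = 0.896) without the 2 arrays of low signal. No PON1 difference passed.

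PON2 probe A_72_P107711 in liver, a contrast that earlier results had already drawn attention to and that is given without a test, read 12.44, 12.79 and 13.03 in F2 C and 11.23, 12.07 and 12.88 in F2 E. The log2 ratio was -0.61, 6 of 8 F2 E pigs lay below the lowest F2 C pig, and the 4 F2 E pigs of the upper run were the 4 lowest of all. In GM the PON2 ratio was -0.53 (SE 0.23, limma adjusted p = 0.256, exact permutation p = 0.0317) and in kidney -0.29 (SE 0.56, limma adjusted p = 1.00), neither past the threshold. Without the 2 kidney arrays of low signal the latter turned to 0.43 (limma adjusted p = 0.896). These PON2 tests used the same pigs as its liver contrast, so they are no independent evidence on the lines.

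In kidney, PON1 and PON2 varied widely among pigs of both lines. Pigs f2_f_2897, f2_m_2890 and f2_m_2878 had the 3 lowest PON1 signals (11.38, 12.05 and 12.26), and pigs f2_m_2890 and f2_f_2897 the lowest PON2 signals (7.71 and 7.88), while all 3 belonged to the pigs with high PON3. The arrays of f2_m_2890 and f2_f_2897 are those of low signal, and its part in these values was not tested. The 4 high PON3 pigs of the upper run did not share this, with PON1 between 13.41 and 14.54. Over the 48 arrays, centred on the mean of their tissue, PON3 probe A_72_P385478 correlated with PON1 at r = -0.32 and with PON2 at r = -0.39, as a description over arrays of the same 16 pigs (-0.25 and -0.31 without the 2 arrays of low signal). By tissue, r with PON1 was -0.54 in liver, -0.32 in GM and -0.25 in kidney. With PON2 it was -0.72 in liver, -0.48 in GM and -0.26 in kidney.

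**Figure D4:**
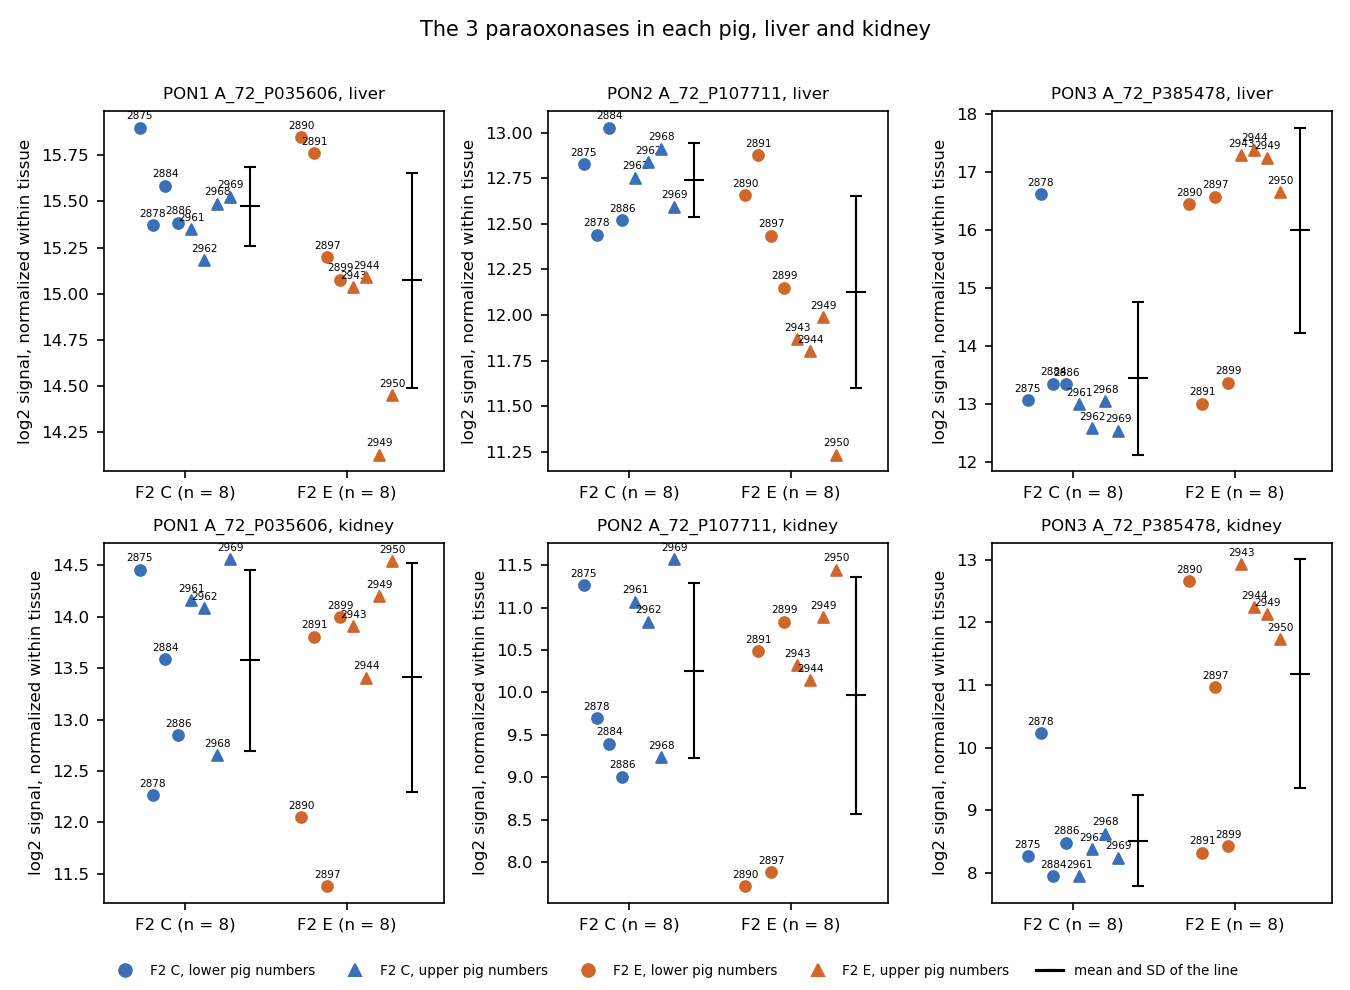
PON1, PON2 and PON3 (y axes, log2 signal normalized within tissue) by line (x axis, n = 8 each) in liver (upper panels) and kidney (lower panels); circles and triangles are lower and upper pig numbers, and bars are mean and SD. In liver the 4 F2 E pigs of the upper run are the 4 highest for PON3 and the 4 lowest for PON2, where pig f2_f_2950 stands at 11.23. The liver array of this pig had the lowest median signal of that tissue (88).

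CES1 had been picked for its lower signal in F2 E livers, and its values there are a description. Probe A_72_P223187 read 16.35, 16.72 and 17.04 in F2 C and 16.0045, 16.43 and 16.82 in F2 E (log2 ratio -0.32), and 4 of 8 F2 E pigs lay below the lowest F2 C pig. Probe A_72_P292384 read 13.92, 14.43 and 14.69 in F2 C and 12.64, 13.70 and 14.39 in F2 E. Its log2 ratio was -0.70, that is 1.62-fold higher in F2 C, with 5 of 8 F2 E pigs below the lowest F2 C pig and 0 of 8 above the F2 C median. Pig f2_f_2950 was the lowest with both probes. Its array had the lowest median signal (88) and the fewest spots well above background (24128) of the liver arrays. The part of this in its values was not tested. Unlike PON3, the CES1 ratio in liver was similar within both number runs, at -0.29 and -0.34 for the first probe and -0.64 and -0.76 for the second (lower, upper). Within the liver slides holding both lines it was -0.16 and -0.43 for A_72_P223187 and -0.33 and -0.95 for A_72_P292384.

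In GM, CES1 probe A_72_P223187 read 6.88, 7.81 and 8.86 in F2 C and 6.63, 7.53 and 9.15 in F2 E, so that the F2 C range lay inside that of F2 E. The log2 ratio was -0.18 (SE 0.33, limma adjusted p = 0.828, exact permutation p = 0.640). Probe A_72_P292384 gave -0.16 (SE 0.17, limma adjusted p = 0.669, exact permutation p = 0.381).

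In kidney, A_72_P223187 read 13.54, 14.35 and 15.21 in F2 C and 13.43, 14.37 and 14.68 in F2 E, with medians almost alike. The log2 ratio was -0.06 (SE 0.23, limma adjusted p = 1.00, exact permutation p = 0.802), and that of A_72_P292384 was -0.05 (SE 0.29, limma adjusted p = 1.00, exact permutation p = 0.890). Without the 2 arrays of low signal both turned sign, to 0.13 (limma adjusted p = 0.927) and 0.10 (limma adjusted p = 0.960). Pig f2_f_2969 of F2 C was the highest kidney with both probes, at 15.21 and 12.05. The CES1 ratio in GM minus that in kidney was -0.12 (SE 0.38) and -0.14 (SE 0.34), both with a limma adjusted p of 1.00, against 0.0464% of probes that passed. With SEs of this size, a difference between lines of the size seen in liver was not resolved in GM or kidney with probe A_72_P223187.

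**Figure D5:**
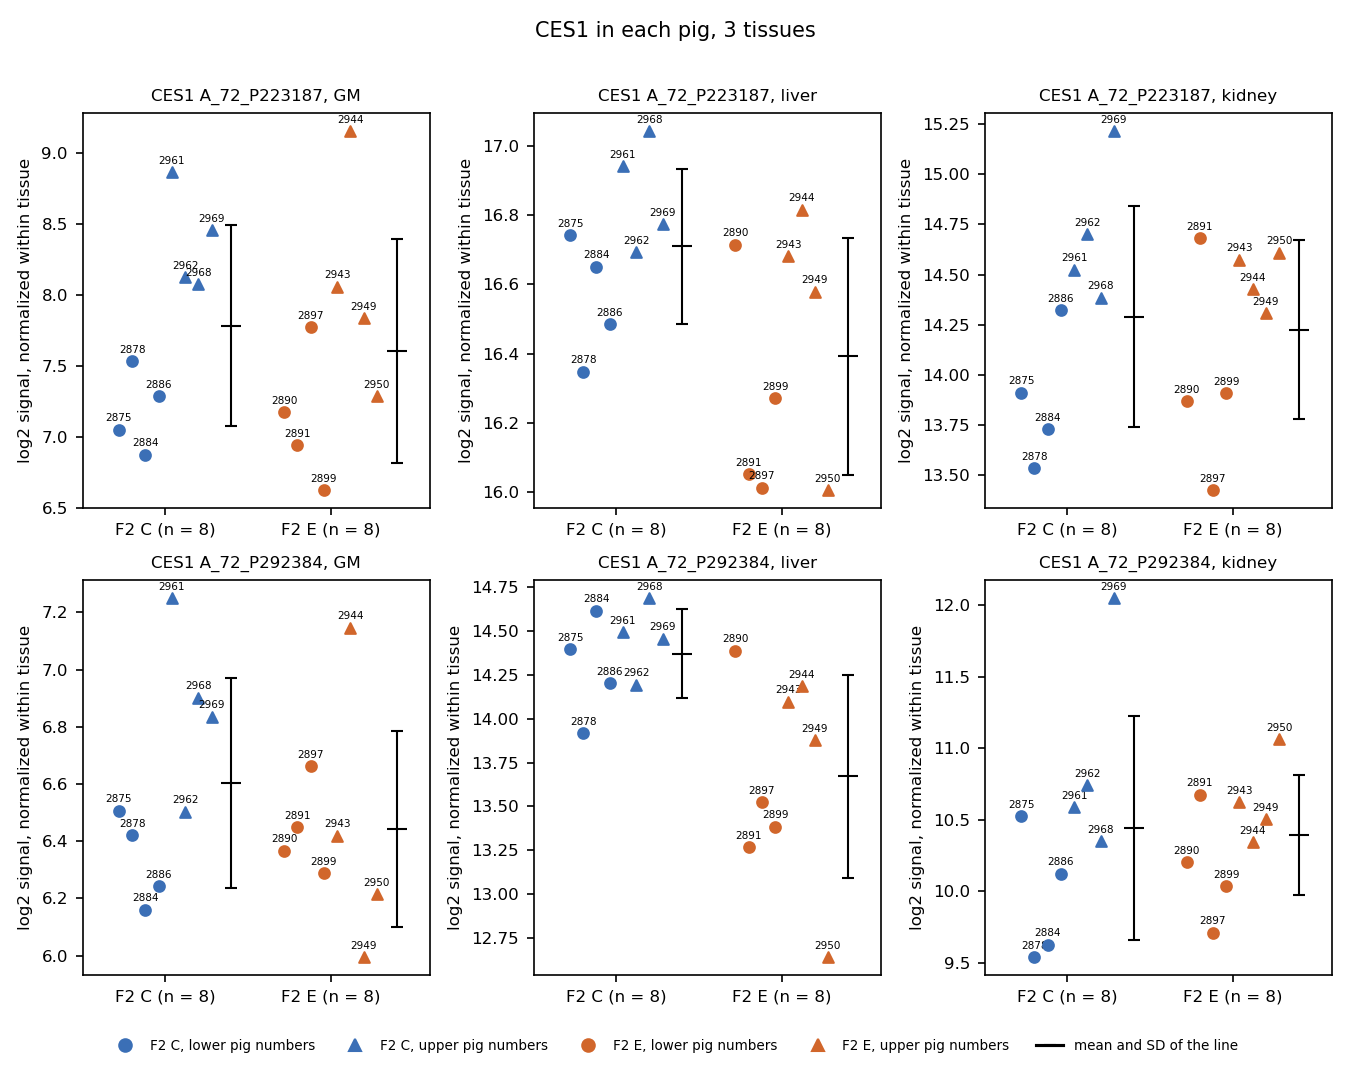
CES1 in each pig (y axis, log2 signal normalized within tissue) by line (x axis, n = 8 each) with probe A_72_P223187 in the upper and A_72_P292384 in the lower panels; circles and triangles are lower and upper pig numbers, and bars are mean and SD. The lower liver panel holds 5 F2 E pigs under the lowest F2 C pig at 13.92, whereas in GM and kidney the lines overlap.

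The 2 CES1 probes ranked the pigs alike. Over 16 pigs their Pearson r was 0.90 in liver (rho 0.83), 0.89 in kidney (rho 0.92) and 0.77 in GM (rho 0.64), the last dropping to 0.54 without the 2 pigs farthest from the median. For the PON3 probes the r within a tissue is given by set, since the liver values of A_72_P385478 lie in separate clusters. It is given without a test, since the sets were read off these values. Within the 7 high pigs the r between the probes was 0.77 in liver and 0.60 in GM, and within the 9 others 0.19 and 0.37. In kidney it was 0.86 within the 7 and -0.76 within the 9 others, so that the probes ran in opposite order in the low pigs, where A_72_P223547 lay near background.

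Across tissues, PON3 signals of a pig were set side by side over all 16 pigs and inside the sets. How much of their relation lies in the division into sets was not tested. For A_72_P385478, r between GM and kidney was 0.93 over all 16 pigs (rho 0.73), given without a test since kidney had picked the gene, and 0.94 without the 2 kidney arrays of low signal. Inside the sets r is given without a test, since the sets were read off the PON3 values. Within the 7 high pigs, GM and liver had r = 0.91 (rho 0.68), GM and kidney 0.68 and liver and kidney 0.48. Within the 9 others, the same r were -0.20, -0.34 and -0.00, so that the low pigs showed no shared order at this number of animals.

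CES1 signals of a pig were less alike between tissues. For A_72_P223187, r was 0.54 between GM and liver (rho 0.59), 0.46 between GM and kidney (permutation p = 0.0725) and 0.27 between liver and kidney. The pairs with liver are given without a test, since liver had picked the gene. The relation of GM and liver rested on few pigs, with r = 0.42 without the 2 farthest, and on the number runs, with r = -0.28 within the lower and 0.72 within the upper run. Within the lines it was 0.56 in F2 C and 0.58 in F2 E. For A_72_P292384, r was 0.38, 0.24 and -0.03 in the same order of tissues (permutation p = 0.378 for GM and kidney). In all, 28 relations of this kind were computed for the members, and these p-values are not adjusted. Over all probes the median r was 0.08, 0.07 and 0.06, and 2.51% of probes reached 0.7 between GM and liver, 2.4% between GM and kidney and 2.52% between liver and kidney. No CES1 probe reached 0.7 in any pair.

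No difference between barrows and females passed for the members. Barrows minus females differed by -0.03 to 0.71 over the 4 probes and 3 tissues, with a lowest limma adjusted p of 0.659 and 0 of 12 at an unadjusted p below 0.05. Of all probes, 0.121% passed both for GM and for liver and 0.0921% for kidney. The interaction of line and sex passed for 0% of the probes tested, whichever the tissue (25594 probes for GM, 28816 for liver, 33664 for kidney). Of the 12 interaction values of the members, 1 had an unadjusted p below the threshold, that of CES1 A_72_P292384 in liver (limma adjusted p = 1.00), and the lowest limma adjusted p of the 12 was 0.906.

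The probes whose pattern was most like that of each member were found by Pearson r over the 48 tissue-centred arrays, among 23371 probes. Most like PON3 probe A_72_P385478 was the other PON3 probe (r = 0.83, over both sets of pigs). It was followed by A_72_P364323 (0.73), A_72_P316628 (0.67), PROX1 (0.66), A_72_P244972 (0.65) and A_72_P289994 (0.64), of which PROX1, a homeobox factor of hepatocytes and lymphatic vessels, was the only named gene. For A_72_P223547 the 5 next probes were unnamed, with r from 0.57 to 0.65.

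For CES1 probe A_72_P223187, A_72_P237572 (0.76) came first and the other CES1 probe (0.74) was second. PRKAG1 (0.74), a regulatory subunit of AMP-activated protein kinase, and 3 unnamed probes (0.68 to 0.72) followed. For A_72_P292384 the order was led by CD247 (0.78), the zeta chain of the T cell receptor, and held QDPR (0.74), which regenerates tetrahydrobiopterin, among 3 unnamed probes between 0.74 and 0.76. These r share the arrays and the pigs and are given without a test. Without the 2 kidney arrays of low signal, r of the named probes was 0.67 for PROX1, 0.74 for PRKAG1, 0.78 for CD247 and 0.75 for QDPR.

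Of the lists of related genes, none had a member that passed between the lines by limma after adjustment. Paraoxonases and genes of high-density lipoprotein had a probe for 12 of 24 genes, 11 or 12 of them tested per tissue. Leaving out PON2 in liver and PON3 in kidney, which had been chosen on these contrasts, there were 3 of 11 genes for GM, 3 of 11 for liver and 1 of 11 for kidney at an unadjusted p below 0.05, where 16.1%, 8.29% and 3.89% of all probes reached that level. In GM these were PON2, PON3 and SCARB1, the receptor for high-density lipoprotein (log2 ratio 0.31, limma adjusted p = 0.197). In liver they were PON3, APOE (-0.39, limma adjusted p = 0.349) and PLTP, the phospholipid transfer protein (-0.44, limma adjusted p = 0.539), and in kidney it was APOC3 (0.82, limma adjusted p = 1.00). PON3 and PON2 were counted here in tissues of the same pigs in which another tissue had picked them. Without them SCARB1 alone remained in GM, and APOE and PLTP in liver, so that nothing is read from these counts. The median log2 ratio of the list was 0.01, -0.10 and 0.00 in GM, liver and kidney, beside -0.02, -0.02 and -0.01 over all probes.

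Other esterases and lipases had a probe for 9 of 26 genes, and CES1 was the only carboxylesterase named. CES1 in liver apart, which had been chosen on that contrast, LIPE, the hormone-sensitive lipase, had an unadjusted p below 0.05 in liver (log2 ratio 0.42, limma adjusted p = 0.275), and 0 did in GM or kidney. The median ratio of the list was 0.03 for GM, -0.05 for liver and 0.02 for kidney. Drug metabolism genes had a probe for 11 of 36 genes, with FMO1, a flavin monooxygenase, at an unadjusted p below 0.05 in GM (0.31, limma adjusted p = 0.308) and 0 in liver and kidney, where the median ratios were 0.05, -0.25 and 0.03 in the same order of tissues. In the 6 marker lists, 0 of 121 tests passed after adjustment and 7 had an unadjusted p below 0.05. Higher in F2 E were TF (0.90) and APOC3 in kidney and FABP4 (0.89) and LIPE in liver, and lower were CALB1 in liver (-0.36), MYH2 in GM (-0.26) and CD8A in GM (-0.34). Array-wide, the share below this unadjusted p was 16.1% for GM, 8.29% for liver and 3.89% for kidney. The 7 marker tests, and LIPE and FMO1 in their lists, are therefore named as a description, and nothing is read from their number.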

How the data were processed

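RNA from GM, liver and kidney of 16 pigs was measured on 48 Agilent 1-colour porcine arrays. The deposited scanner files hold intensities per spot (median signal, local background and a background-corrected signal), which the authors extracted with Feature Extraction (version 10.5.1.1 in the file headers) without normalization between arrays. Tables with the authors' log2 values, ratios and p-values were not used.

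Here the median signal was quantile-normalized within each tissue, or over all 48 arrays for tissue comparisons, and put on the log2 scale. Of 45220 spots, 1417 controls were left out, and outlier spots were removed after normalization. A probe was kept if, in either line, 50% or more of the arrays gave a signal above 25 that was well above background, and if each line had 2 or more arrays. Lines were compared with lmFit and eBayes (limma 3.58.1, R 4.3.3) without a block, with Benjamini-Hochberg adjustment over all probes of the tissue and a threshold of 0.05. Tissue contrasts used the pig as a random block (correlation 0.0301). Single probes were also tested by exact permutation over 6435 partitions, and correlations over 16 pigs by 100000 resamples (SciPy 1.17.1). The fits were tested on simulated data.

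Of 43603 probes, 2628 were named through RefSeq by accession. The text names the member probes, other paraoxonases and carboxylesterases, the 5 probes most like each member, and genes of 3 pathway and 6 marker lists with an unadjusted p below 0.05, the last chosen after their values were seen. Members and lists were chosen with earlier results of these data known. The precision is limited by the number of arrays. A planned normexp correction of the mean signal was not run, as the columns used here hold none, and normexp on the median signal (offset 50) took its place, chosen after seeing the data, as were the division of PON3 into 7 and 9 pigs and the fits without the 2 kidney arrays whose median signal was low.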

Additional observations from a re-analysis of the deposited data

Results flagged for a closer look

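Pig f2_m_2878 stood far above the other F2 C pigs in PON3, by the ratio of its distance from the next pig to the range of the 8 pigs (critical value 0.526 at 95%). With probe A_72_P385478 this ratio was 0.543 in GM (11.85 beside 10.72 for the next pig), 0.802 in liver (16.62 beside 13.36) and 0.701 in kidney (10.23 beside 8.62). With probe A_72_P223547 it was 0.843 in liver (11.41 beside 8.36). Of 24 groups of 8 pigs examined for the 4 probes, these 4 were marked. Chance marks about 1 in 20 independent groups, but these share 1 pig and 1 gene, restate the single high F2 C pig described above, and include the kidney values on which PON3 had been selected, so their number is not set against that rate.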

How the results depend on the processing

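Of 112 alternative values of the tested line comparisons (other scalings, background corrections, filters, tests, covariates and subsets), 103 kept their direction and their side of the threshold. Of 57 values of the contrasts given without a test, 54 moved by less than the SD between pigs. The 4 values that passed the threshold were those of PON3 within the upper number run, 4.35 and 3.65 in liver and 2.81 and 1.28 in GM, where 0.129% of all probes passed in liver and 4.26% in GM. These 4 values set pigs of the high set against pigs outside it, and they are no independent evidence on the lines. For PON3 A_72_P223547 in kidney the ratio moved to 1.56 with the background-corrected signal and to 0.13 and 0.92 within the lower and upper run. CES1 turned sign within the lower run, to 0.11 in GM (A_72_P292384) and to 0.10 and 0.20 in kidney (A_72_P223187, A_72_P292384), where both also turned, to 0.128 and 0.0980, without the 2 kidney arrays of low signal, an alternative chosen after seeing the data. Leaving out each pig in turn gave 1.32 to 1.96 for PON3 A_72_P385478 in GM (past the threshold without pig f2_m_2891), 2.35 to 3.00 for it in liver, and -0.172 to 0.0673 and -0.18 to 0.18 for CES1 in kidney, where the sign turned without pigs f2_f_2897 or f2_f_2969 and, for A_72_P292384, f2_f_2899. The cause of these changes was not tested.

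With the replicate number as a block, PON3 A_72_P385478 had a limma adjusted p of 0.285 in liver (ratio 2.55) and 0.157 in GM, and no call changed. The numbers do not pair the pigs, as same-numbered pigs correlated between -0.57 and 0.58.

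All 276 alternative values of the tissue differences and 4 of the CES1 probe correlations kept direction and side. The barrow difference of CES1 A_72_P223187 in kidney turned to -0.0211 with the background-corrected signal. The correlation of GM and kidney for PON3 A_72_P385478 was 0.75 within F2 C, where pig f2_m_2878 stood far above the other pigs in both tissues. For CES1 A_72_P223187, GM and liver gave 0.56 within F2 C, 0.58 within F2 E, 0.42 without the 2 farthest pigs, -0.28 within the lower run and 0.48 to 0.62 leaving out a pig. GM and kidney gave 0.74 within F2 C, -0.47 within the lower run and 0.39 to 0.56 leaving out a pig, and liver and kidney -0.105 and -0.0600 within the lower and upper run. For A_72_P292384, GM and liver gave -0.43 within the lower run, GM and kidney -0.317 within F2 E and -0.0590 within the upper run, and liver and kidney 0.0969 and 0.0692 with the background-corrected and median signals scaled to the 75th percentile, 0.24 within F2 C, 0.34 without the 2 farthest pigs and -0.26 to 0.21 leaving out a pig.

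Kidney and GM values of PON3 A_72_P223547 lie near background and have no firm size.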
